A study of Macaca mulatta with 10 samples.

Results

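The proteasome subunit genes were examined in the RNA of Tr1 cells from rhesus macaques that carried islet allografts; Tr1 cells are CD4+ T cells that restrain immune responses, largely by secreting IL-10. They were taken as every row of the count table whose gene symbol begins with PSMA, PSMB, PSMC, PSMD, PSME, PSMF or PSMG followed by a number, which gave 54 of 26484 rows. Of these, 48 encode proteasome subunits, assembly factors, activators or an inhibitor. The remaining 6 match by name alone, being 5 antisense RNAs and PSMC3IP, a recombination factor named for its binding to PSMC3. Cohort B consisted of 5 monkeys without infusion of apoptotic donor leukocytes (ADLs), and Cohort C of 5 monkeys with ADL infusion. All had been made diabetic, had received an MHC class I-disparate, one MHC-II DRB allele-matched islet allograft and had been given the same transient immunosuppression with anti-CD40 antibody 2C10R4, rapamycin, tocilizumab and etanercept. CD4+CD49b+LAG-3+ cells were sorted from thawed blood mononuclear cells, and 1 library was made per monkey. The labels place collection at rejection in Cohort B and at the planned study end in Cohort C, so ADL infusion and the occasion of sampling cannot be told apart.

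The proteasome is the main protease for ubiquitin-tagged proteins in the cytosol and nucleus of every cell. Its barrel-shaped core has outer rings of alpha subunits (PSMA) and inner rings of beta subunits (PSMB), among which PSMB5, PSMB6 and PSMB7 cut the chain. A regulatory cap of ATPases (PSMC) and non-ATPases (PSMD) recognises, unfolds and feeds in the substrate. In lymphocytes and under interferon-gamma, PSMB8, PSMB9 and PSMB10 replace the constitutive catalytic subunits during assembly and form the immunoproteasome, which generates many of the peptides shown on MHC class I. T cells need proteasome activity for NF-kappa B signalling and for passage through the cell cycle.

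The libraries differed greatly in depth, and nearly all of the proteasome signal came from 4 of them. Total counts ran from 6076 in monkey 14HP31 to 5895609 in monkey 15CP1. Only 13EP12 and 13EP8 of Cohort B and 13EP5 and 15CP1 of Cohort C exceeded 1000000 counts, and these are called the 4 deepest libraries. In monkey 14HP33 of Cohort C, the MTRNR2L genes, nuclear copies related to mitochondrial ribosomal RNA, took 87.0% of the counts. T cell markers summed to between 2551 and 12126 counts in the 4 deepest libraries and to between 0 and 371 in the other 6. The sort markers ITGA2 (CD49b) and LAG3 exceeded 3 counts in 3 libraries each, 13EP12, 13EP5 and 15CP1, and LAG3 was at 0 in the remaining 7. Monocyte markers summed to 1429 counts in 13EP12, 1532 in 13EP8, 459 in 13EP5 and 6409 in 15CP1, and in the other 6 libraries to between 0 and 362. All 7 of these monocyte genes, which include CD14, LYZ and VCAN, had counts above 3 in at least 1 library, and their part in the proteasome values was not tested. Of the other lists, 5 B cell markers summed to between 0 and 102 counts in Cohort B and 0 and 376 in Cohort C, 5 CD8 and NK cell markers to between 0 and 257 and 0 and 256, and 4 platelet markers to between 0 and 26 and 0 and 487, highest in 13EP5. The erythroid gene HBB had 186 counts in 15CP6 and 93 in 14HP33, and 0 in the other 8.

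Proteasome transcripts were readily counted in the deep libraries and sparse in the rest. Of the 48 genes, 41 had at least 1 count in 13EP12, 39 in 13EP8, 43 in 13EP5 and 43 in 15CP1. The other libraries held 14 in 15CP6, 10 in 14HP24, 9 in 14HP26, 4 in 14HP33, 3 in 15CP4 and 1 in 14HP31. In both cohorts the 2 libraries above 1000000 counts thus held more of the 48 genes than the others, and 14HP33, which had 968423 counts, held 4. In the same libraries, 33.6% to 56.9% of all genes in the table had a count in the 4 deepest and 1.76% to 18.3% in the other 6. In all, 31087 counts fell on the 48 genes, and 30081 of them (96.8%) were in the 4 deepest libraries. Of the 480 values, 273 were 0.

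The proteasome genes together took a small and rather even share of the counts in the deep libraries. Their share was 0.210% of all counts in 13EP12 (95% Wilson interval 0.202% to 0.219%), 0.266% in 13EP8 (0.257% to 0.274%), 0.291% in 13EP5 (0.285% to 0.297%) and 0.240% in 15CP1 (0.236% to 0.244%). The other libraries lay lower, at 0.147% in 15CP6, 0.111% in 15CP4, 0.109% in 14HP24, 0.0987% in 14HP31, 0.0738% in 14HP26 and 0.00237% in 14HP33, though the interval of 14HP31, 0.0453% to 0.215%, reached that of 13EP12. The cohorts overlapped, with a range of 0.0738% to 0.266% in Cohort B (median 0.147%) and of 0.00237% to 0.291% in Cohort C (median 0.111%). Without the MTRNR2L genes in the total, the medians were 0.194% in Cohort B and 0.197% in Cohort C. Intervals cover counting error only, and in bulk RNA fewer cells of a type and less RNA per cell cannot be told apart.

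**Figure D1:**
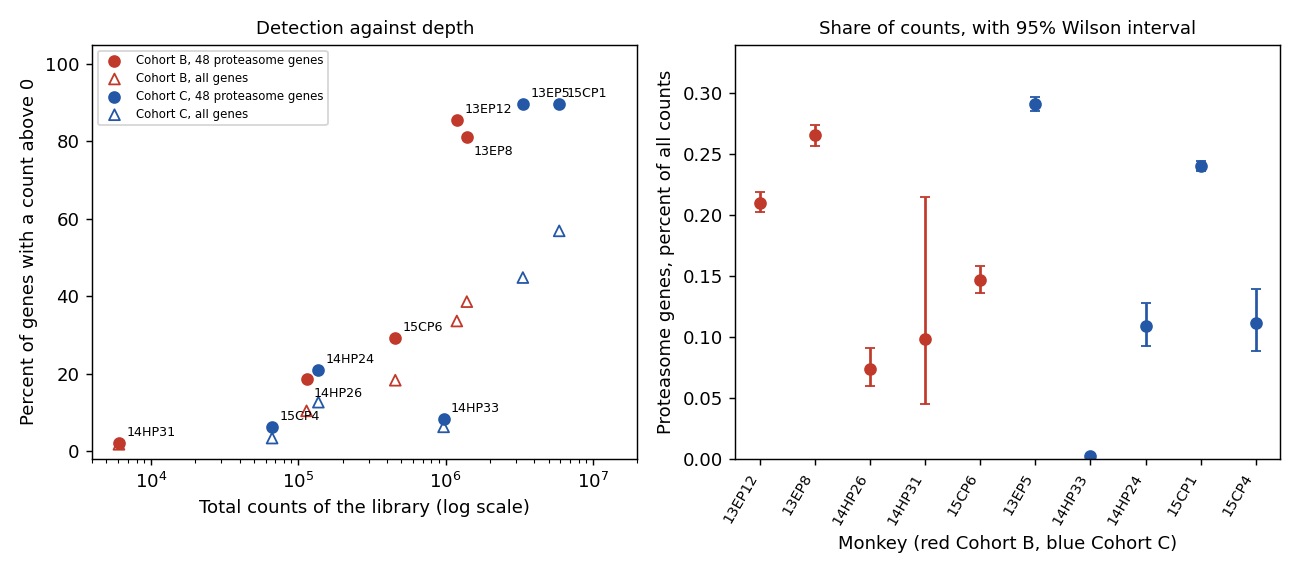
Left, percent of genes with a count above 0 (vertical axis) against the total counts of each library (log scale), as circles for the 48 proteasome genes and triangles for all genes of the table, red for Cohort B and blue for Cohort C. Right, percent of all counts on the 48 genes in each library with its 95% Wilson interval; the 4 deepest libraries lie between 0.210% and 0.291%, above the other 6.

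In the core, 7 of the 8 alpha genes were counted, and each of these 7 had counts in all 4 deepest libraries. PSMA8, a testis form, was at 0 in every library. PSMA7 had the most counts of the class, with 39 in 13EP12, 136 in 13EP8, 31 in 15CP6, 397 in 13EP5, 2 in 14HP24, 842 in 15CP1 and 0 in the other 4. PSMA4 had 14 in 13EP12, 387 in 13EP8, 30 in 15CP6, 519 in 13EP5, 401 in 15CP1 and 0 in the other 5. In counts per 1000000 after TMM scaling (CPM), PSMA4 stood at 12.1 in 13EP12 and 295 in 13EP8, so that both Cohort C values, 161 and 83.0, lay between the values of these Cohort B monkeys. PSMA6 was among the most widely counted genes, with counts in 7 libraries. PSMA4 therefore varied more between the deep libraries of Cohort B than between those of Cohort C.

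Of the beta genes without catalytic activity, PSMB1, PSMB2 and PSMB4 were counted and PSMB3 was at 0 in all 10 libraries. PSMB1 had 7 counts in 13EP12, 85 in 13EP8, 124 in 13EP5, 208 in 15CP1 and 0 in the other 6. PSMB4 had 1 count in 13EP12, 23 in 13EP8, 159 in 13EP5, 8 in 14HP33, 159 in 15CP1 and 0 in the other 5. For PSMB4, 3 of the Cohort C libraries lay above every Cohort B library in CPM, at 32.9 to 114 against a highest Cohort B value of 17.5, while 2 were at 0. The 114 CPM stood for 8 counts in 14HP33, where 1 count is worth 14.2 CPM. PSMB3 is a structural beta subunit of the core, so its absence from the counts stands beside clear counts of its ring partners.

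The constitutive catalytic genes gave few counts. PSMB5, the chymotrypsin-like subunit, had 4 counts in 13EP12, 31 in 13EP5, 48 in 15CP1 and 0 in the other 7, 13EP8 included. PSMB6, the caspase-like subunit, had 96 in 13EP12, 1 in 13EP8, 76 in 13EP5, 81 in 15CP1 and 0 elsewhere. PSMB7, the trypsin-like subunit, had 12 in 13EP12, 19 in 13EP8, 113 in 13EP5, 262 in 15CP1 and 0 elsewhere. The order of the 3 genes was not the same in each library. Scaled for gene length by the authors, as FPKM, PSMB6 was the highest of the 48 genes in 13EP12 at 168 and was listed at 0 in 13EP8, while PSMB7 was listed at 0 in 13EP12 and at 23.9 in 13EP8.

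Of the immunoproteasome genes, only PSMB10 was counted. PSMB10, which replaces PSMB7, had 28 counts in 13EP12, 9 in 13EP8, 6 in 14HP31, 66 in 13EP5, 121 in 15CP1 and 0 in the other 5. PSMB8, which replaces PSMB5, and PSMB9, which replaces PSMB6, were at 0 in all 10 libraries, in the counts and in the FPKM values. Over the 13567631 counts of the series, a count of 0 allows up to 0.221 counts per 1000000, and in single libraries up to 0.509 in 15CP1 and 494 in 14HP31. These limits cover counting only and hold where reads of a gene could be counted, which was not tested for PSMB8 and PSMB9. PSMB11, the thymus-specific catalytic subunit of cortical epithelium, was also at 0 throughout.

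The share of the immunoproteasome genes among catalytic counts (PSMB8, PSMB9 and PSMB10 over these and PSMB5, PSMB6 and PSMB7) rests on PSMB10 alone. It was 20% of 140 counts in 13EP12 (95% Wilson interval 14.2% to 27.4%), 31.03% of 29 in 13EP8 (17.3% to 49.2%), 23.1% of 286 in 13EP5 (18.6% to 28.3%) and 23.6% of 512 in 15CP1 (20.2% to 27.5%). The 4 intervals overlapped. The other libraries had fewer than 20 catalytic counts, namely 6 in 14HP31, all on PSMB10, and 0 in 5 libraries. The difference of the cohort medians, Cohort C minus Cohort B, was -2.16 percentage points, within the SD of 5.52 points between libraries of a cohort. From FPKM in place of counts it was 6.59, where PSMB10 was listed at 0 FPKM in 13EP8, and without 13EP8 it was 3.35.

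**Figure D2:**
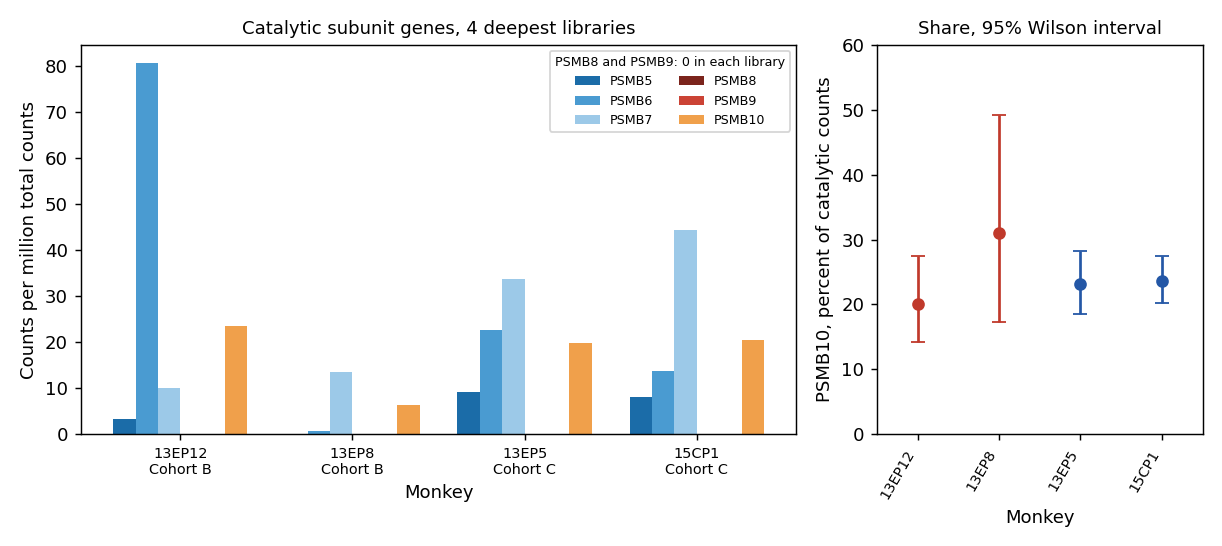
Left, counts per 1000000 total counts (vertical axis) of the 6 catalytic subunit genes in the 4 deepest libraries, 1 bar per gene; PSMB8 and PSMB9 have no bar because they are at 0. Right, PSMB10 as a percent of all catalytic counts with its 95% Wilson interval, red for Cohort B and blue for Cohort C; the 4 values run from 20% to 31.03% and their intervals overlap.

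PSMB8 and PSMB9 lie side by side with TAP1 and TAP2, the genes of the peptide transporter, in the MHC region, and most of the genes around them were also at 0. For each of the 48 genes, up to 10 protein-coding genes on either side, in the order of the macaque assembly T2T-MMU8v2.0, were looked up in the count table, a comparison chosen after the values had been seen. Around PSMB8, 14 of 20 neighbours were at 0 in all 10 libraries, among them TAP1, TAP2, RXRB and NOTCH4, and around PSMB9, 13 of 20 were. These neighbours are largely the same genes, and PSMB8 and PSMB9 each count among the zeros of the other. RPS18, a neighbour of both, had 1 count over the series. Around PSMB3, 7 of 20 neighbours were at 0, and the genes directly beside it had few counts. These were MLLT6 (10), CISD3 (0) and PCGF2 (0) on one side and PIP4K2B (6) and CWC25 (30) on the other. Further along, RPL23 and RPL19 had 12388 and 18628 counts. For the 43 counted genes the share of neighbours at 0 ran up to 35.7% (PSMD13), around PSMB10 it was 1 of 20, and over 16520 protein-coding genes shared with the assembly it was 18.2%. The reads of these macaques had been mapped to the human genome, and the part of that step in the zeros was not tested.

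**Figure D3:**
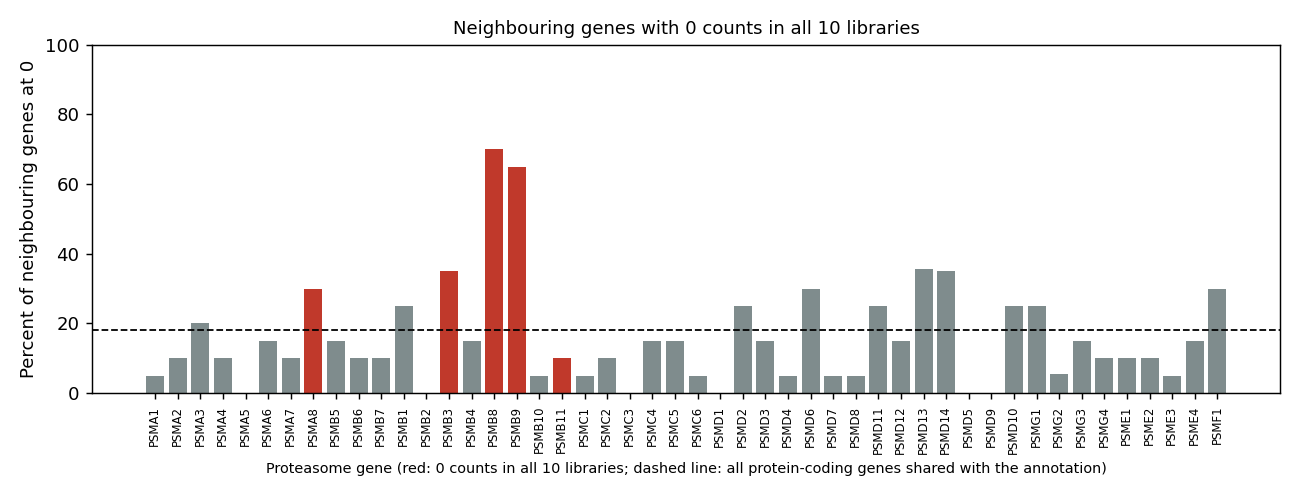
Percent of the protein-coding neighbours (vertical axis, up to 10 on either side) with 0 counts in all 10 libraries, for each of the 48 proteasome genes; red bars are genes at 0 themselves and the dashed line is the 18.2% of all shared protein-coding genes at 0. PSMB8 (70.0%) and PSMB9 (65.0%), whose neighbours are largely the same genes, stand above the other genes, which reach 35.7% at most.

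The cap was counted in full in 13EP5 and 15CP1, where the alpha and constitutive beta genes lacked PSMA8 and PSMB3 only. All 6 ATPase genes and all 11 non-ATPase genes had counts in 13EP5 and 15CP1, whereas PSMC1 was at 0 in 13EP8 and PSMD1 in 13EP12. Cap counts divided by core counts (alpha and beta without the immunoproteasome genes) gave 1.92 in 13EP12, 1.31 in 13EP8, 1.75 in 13EP5 and 1.72 in 15CP1, a ratio that also carries gene length. In these 4 libraries the Cohort C values lay between the Cohort B values. In the shallow libraries the ratio was 0.2 in 14HP26 and 3.44 in 15CP6 of Cohort B. In those of Cohort C it was 1.625 in 14HP33, 4.33 in 14HP24 and 0 in 15CP4. The library of 14HP31 had 0 core counts and no ratio.

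PSMC4, an ATPase of the cap ring, had 170 counts in 13EP12, 197 in 13EP8, 234 in 15CP6, 223 in 13EP5, 30 in 14HP24, 419 in 15CP1 and 0 in the other 4. Its CPM was 147 and 150 in the deep Cohort B libraries and 69.3 and 86.7 in the deep Cohort C libraries. Among the shallow libraries it reached 516 in 15CP6 of Cohort B, the highest value, and 173 in 14HP24 of Cohort C. PSMC5, another ATPase, had 47 counts in 13EP12, 165 in 13EP8, 1 in 14HP26, 195 in 13EP5, 1 in 14HP33, 536 in 15CP1 and 0 in the other 4. For PSMC5, with 40.7 and 126 CPM in the deep Cohort B libraries and 60.6 and 111 in those of Cohort C, the cohorts overlapped.

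PSMD2, a large scaffold of the cap base, had 81 counts in 13EP12, 107 in 13EP8, 29 in 15CP6, 591 in 13EP5, 6 in 14HP24, 683 in 15CP1 and 0 in the other 4. PSMD6, a subunit of the cap lid, had 89 in 13EP12, 166 in 13EP8, 632 in 13EP5, 525 in 15CP1 and 0 in the other 6. PSMD12, also of the lid, was counted in 7 libraries, with 146 in 13EP12, 106 in 13EP8, 36 in 15CP6, 214 in 13EP5, 12 in 14HP33, 55 in 14HP24, 169 in 15CP1 and 0 in the other 3. In the deep libraries PSMD12 was lower in both Cohort C monkeys (66.5 and 35.0 CPM) than in both Cohort B monkeys (126 and 80.8), while the shallow Cohort C libraries 14HP33 and 14HP24 stood at 170 and 317 CPM. PSMD13 was the steadiest of the genes above 3 counts in all 4 deepest libraries, spanning 0.29 on the log2 scale between its lowest and highest share of the counts.

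Assembly factors were counted in the deep libraries only. All 7 had counts in 13EP5 and 15CP1, 6 in 13EP12, 5 in 13EP8 and 0 in the other 6 libraries. PSMD5, a chaperone of the cap base, had 2 counts in 13EP12, 8 in 13EP8, 82 in 13EP5 and 200 in 15CP1. PSMG1, a chaperone of the alpha ring, had 1 in 13EP12, 70 in 13EP8, 103 in 13EP5 and 69 in 15CP1. PSMD5 thus separated the cohorts among the deep libraries and PSMG1 did not.

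The activator genes PSME1 and PSME4 had the most counts of all 48 genes. PSME1, the alpha subunit of the interferon-inducible activator that opens the core without ATP, had 201 counts in 13EP12, 212 in 13EP8, 57 in 15CP6, 941 in 13EP5, 2050 in 15CP1 and 0 in the other 5. Per length, PSME1 ranked highest of the 48 genes in 13EP5, at 2239 FPKM, and in 15CP1, at 482 FPKM, and it was within the top 3 in 13EP12 (112) and 13EP8 (146). PSME2, its partner subunit, had 3 counts in 13EP12, 37 in 13EP8, 136 in 13EP5, 3 in 14HP24, 255 in 15CP1 and 0 in the other 5. On the FPKM scale PSME2 stood below PSME1 in each of the 4 deepest libraries, at 240 in 13EP5, 65.6 in 15CP1 and listed at 0 in 13EP12 and 13EP8.

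PSME4, the large activator linked to chromatin and DNA repair, was the most widely counted gene, with 298 counts in 13EP12, 327 in 13EP8, 42 in 15CP6, 657 in 13EP5, 2 in 14HP33, 2 in 14HP24, 1317 in 15CP1, 26 in 15CP4 and 0 in 14HP26 and 14HP31. Its CPM in the 4 deepest libraries was nearly even, from 204 in 13EP5 to 272 in 15CP1. PSME3, the nuclear activator, was uneven, with 160 counts in 13EP12, 6 in 13EP8, 6 in 14HP26, 259 in 13EP5, 483 in 15CP1, 47 in 15CP4 and 0 in the other 4. PSMF1, an inhibitor of the core, had 6 in 13EP12, 139 in 13EP8, 11 in 15CP6, 259 in 13EP5, 282 in 15CP1 and 0 in the other 5. Both PSME3 and PSMF1 differed more between the 2 deep Cohort B monkeys than between the deep Cohort C monkeys.

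**Figure D4:**
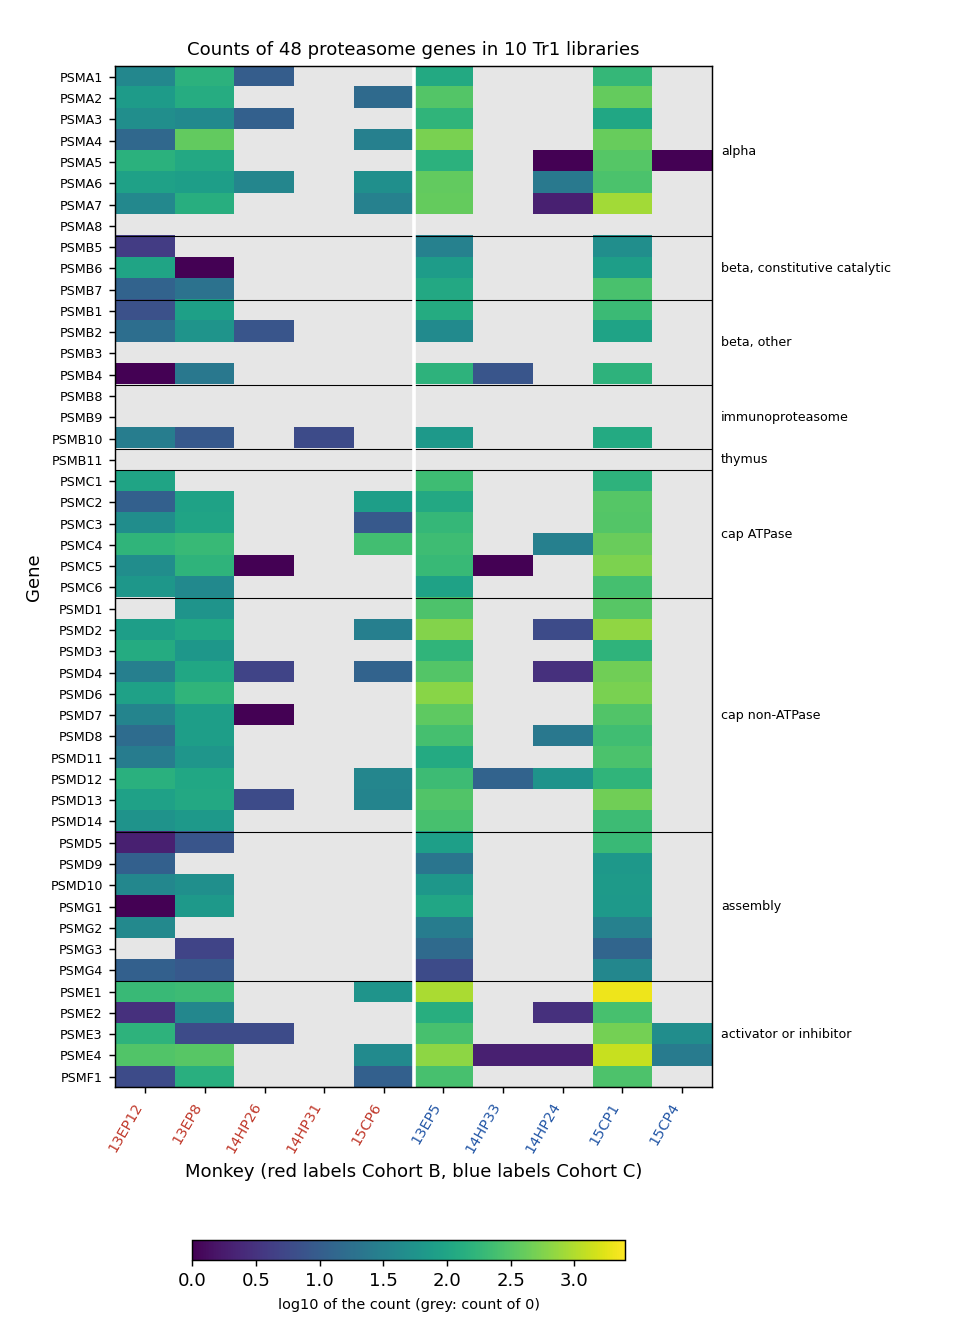
Counts of the 48 proteasome genes (rows, grouped by role) in the 10 libraries (columns, Cohort B left and Cohort C right of the white line), as log10 of the count, with grey for a count of 0. Colour fills the columns of 13EP12, 13EP8, 13EP5 and 15CP1, the other 6 columns are mostly grey, and PSMA8, PSMB3, PSMB8, PSMB9 and PSMB11 are grey throughout.

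The proteasome profile was more alike in some deep libraries than in others. Over the 43 counted genes, Spearman's rho of the CPM was 0.84 between 13EP5 and 15CP1 of Cohort C and 0.36 between 13EP12 and 13EP8 of Cohort B, where all tested genes gave 0.85 and 0.65. The library of 13EP8 was closer to those of Cohort C, at 0.71 with 13EP5 and 0.75 with 15CP1, than to 13EP12, which had 0.47 and 0.43 with the Cohort C libraries. Over all tested genes the same pairs gave 0.69 and 0.76 for 13EP8, and 0.68 and 0.76 for 13EP12. These points share gene length and mapping, and 13EP5 and 15CP1 were also the deepest libraries. Between its lowest and highest of the 4 deepest libraries, a proteasome gene spanned a median of 1.64 on the log2 scale (32 genes above 3 counts in all 4, range 0.29 to 4.96), against 1.65 over 6134 genes chosen in the same way.

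To ask whether ADL infusion went with a change of the proteasome genes, the 5 libraries of Cohort C were set against the 5 of Cohort B in a quasi-likelihood fit with edgeR, which took in each gene whose counts added up to 10 or more. Of the 54 rows, 48 were tested, 43 of them proteasome genes, and the other 6 were at 0 everywhere. With a threshold of 0.01 on the unadjusted p and of 1.5 on the fold change, 0 of the 43 genes and 1 of the 48 rows were called, where 6.43% of all 14168 genes were. At an unadjusted p under 0.05 the numbers were 0 and 2, against 20.6% of all genes. At an adjusted p under 0.05, 0 of the 48 were called by edgeR, and 0% of all genes; DESeq2, limma-voom and edgeR's exact test called 0 of the 48 as well. The only called row was PSMG3-AS1, an antisense RNA that had 14 counts in 13EP8 and 0 in the other 9 libraries.

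Among the 43 genes, 24 had higher and 19 lower estimates in Cohort C, and 53.5% of all genes had higher ones. The median log2 fold change of the 48 tested rows was 0.16, also with the genes at 0 in a cohort set to their bound, and that of all genes was 0.16. By role, the estimate was higher in Cohort C for 1 of 7 alpha genes (median log2 fold change -0.61), 2 of 3 constitutive catalytic genes (1.67), 2 of 3 other beta genes (0.16), 2 of 6 cap ATPases (-0.15), 9 of 11 cap non-ATPases (0.55), 3 of 7 assembly factors (-0.25) and 5 of 5 activators and inhibitors (0.62). None of these genes passed the test, so the directions are estimates, and standard errors ran from 1.63 (PSMG3) to 2.27 (PSMB4) on the log2 scale. The direction depended on the scaling for the genes as a whole, 21 of 43 being higher in Cohort C with RLE size factors or library size only and 17 of 43 with DESeq2, where 49.4%, 47.7% and 40.1% of all genes were higher. The alpha genes kept 1 of 7 higher under each of these scalings, and the activators and inhibitor 4 or 5 of 5. By limma on log2(FPKM + 1), however, the alpha median was 1.32, where all genes gave 0.74. It was 1.25 for the cap ATPases and 1.06 for the 4 assembly factors tested. The other beta genes turned to a median of -0.051 with library size only and -0.039 with DESeq2. In the 4 deepest libraries, 2 of 7 alpha genes and 4 of 5 activators and inhibitors had higher estimates.

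The smallest p among the 43 genes was that of PSMB4, with a log2 fold change of 3.10 ± 2.27 (SE) and an adjusted p of 0.573 by edgeR's quasi-likelihood test. PSMD5 followed at 2.74 ± 2.19 (adjusted p = 0.653) and PSMB5 at 2.12 ± 1.89 (adjusted p = 0.751). Lower estimates included PSMB10, at -2.29 ± 2.196 (adjusted p = 0.807), and PSMC4, at -1.31 ± 1.996 (adjusted p = 0.996). The estimate of PSMB10 rested on 14HP31, whose 6 counts in a library of 6076 amounted to 237 CPM, against 6.86 to 25.0 in the 4 deepest libraries. Without that library it was 0.30.

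An exact permutation test (two-sided, on log2(CPM + 1), over every assignment of the libraries to cohorts) called 0 of the 48 rows at p under 0.05, against 0.24% of all genes. The smallest p that it can give is 0.00794, and the smallest among the proteasome genes was 0.206, for PSMB4, whose mean was 1.02 ± 1.83 (SD, n = 5) in Cohort B and 3.52 ± 3.27 (SD, n = 5) in Cohort C by this exact permutation test. The spread within cohorts was of similar size elsewhere. PSME1 had a mean log2(CPM + 1) of 4.36 ± 3.98 in Cohort B and 3.39 ± 4.64 in Cohort C (SD, n = 5 each), and PSME4 had 4.51 ± 4.16 and 6.33 ± 1.96. On log2(FPKM + 1), limma tested 40 of the 48 genes and called 0 at an adjusted p under 0.05 and 1.4-fold, where 0% of all genes were called, and 0 had an unadjusted p under 0.05, against 0.281% of all genes.

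**Figure D5:**
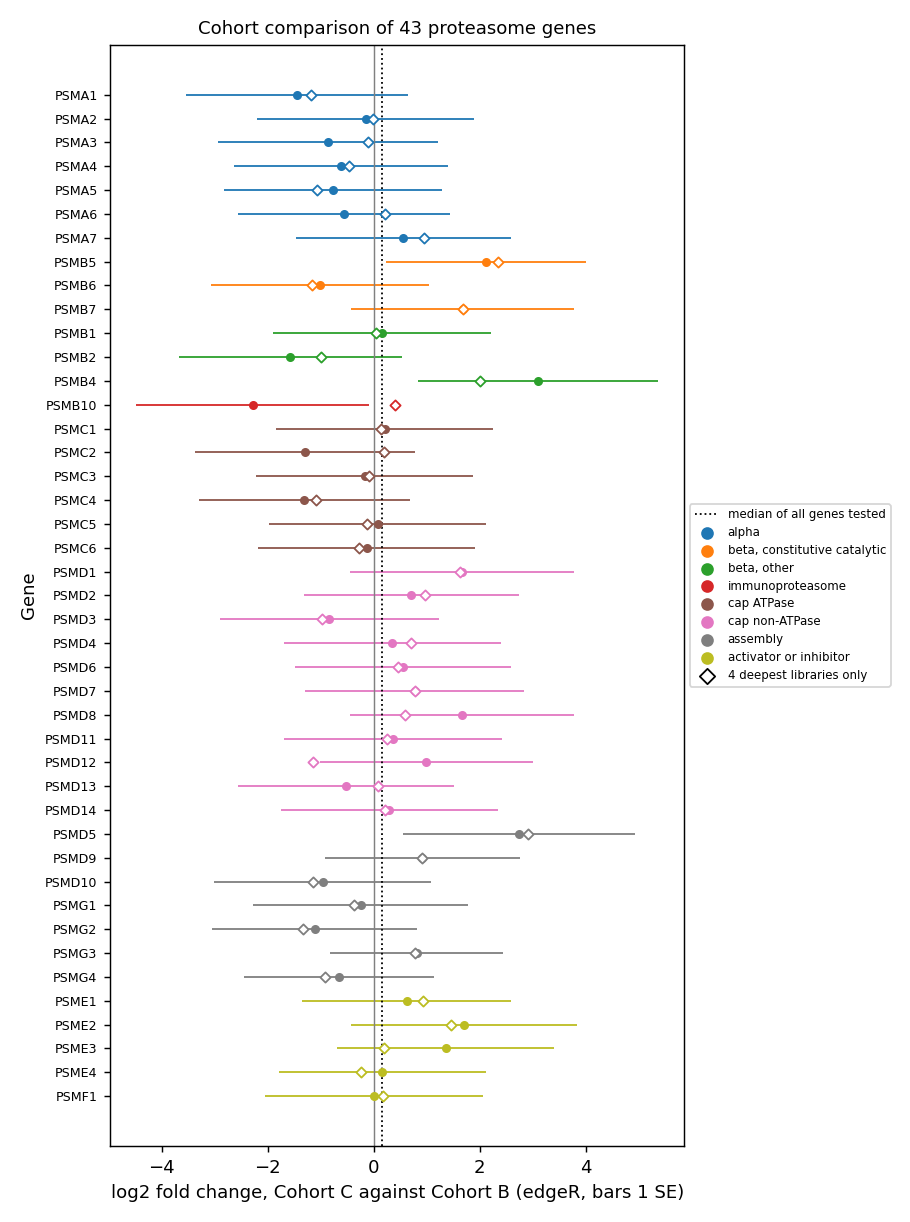
log2 fold change of Cohort C against Cohort B (horizontal axis) for the 43 proteasome genes tested, filled points with bars of 1 SE from all 10 libraries and open diamonds from the 4 deepest libraries, coloured by role; the dotted line is the median of all genes tested. The bars of most genes cross 0, and PSMB10 lies at -2.29 with all libraries and at 0.40 with the 4 deepest.

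With the 4 deepest libraries alone, 2 per cohort and chosen after the counts had been seen, 0 of the 48 rows were called by edgeR at an unadjusted p under 0.01 and 1.5-fold, against 0.881% of all genes. Of the 43 genes, 25 had higher estimates in Cohort C, and 59.5% of all genes did. Both Cohort C libraries lay above both Cohort B libraries in CPM for 11 of 43 genes (25.6%), against 32.9% of all genes, and below them for 4 (9.3%), against 7.35%. The 11 were PSMA7, PSMB4, PSMB5, PSMB7, PSMD1, PSMD2, PSMD4, PSMD5, PSMD13, PSME1 and PSME2, and the 4 were PSMA5, PSMC4, PSMD10 and PSMD12. The first group holds both subunits of the interferon-inducible activator, although its share of the genes was below that of all genes. PSME1 was at 174 and 162 CPM in Cohort B and 292 and 424 in Cohort C. PSME2 was at 2.60, which stood for 3 counts in 13EP12, and 28.2 in Cohort B, against 42.3 and 52.8 in Cohort C. By edgeR on these libraries, the log2 fold change was 0.93 for PSME1 and 1.45 for PSME2, both with an adjusted p of 0.80. PSMB10 was at 24.2 and 6.86 CPM in Cohort B and 20.5 and 25.0 in Cohort C. Over all 10 libraries, the difference of mean log2(CPM + 1), Cohort C minus Cohort B, was -0.97 for PSME1 and 1.73 for PSME2.

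Partners of the proteasome did not pass the test either. The 12 partners in the table include the maturation factor POMP, the ubiquitin receptor ADRM1, the deubiquitinase USP14 and the transcription factor NFE2L1 that drives proteasome genes. Of the 12, 7 had higher and 5 lower estimates in Cohort C, where 53.5% of all genes had higher ones. With RLE, library size only or DESeq2, 5 of the 12 had higher ones, against 49.4%, 47.7% and 40.1% of all genes. By edgeR 0 of the 12 were called at an unadjusted p under 0.01 and 1.5-fold, against 6.43% of all genes. At an adjusted p under 0.05, 0 of the 12 and 0% of all genes were called. An unadjusted p under 0.05 was reached by 0 of the 12, against 20.6% of all genes. In MHC class I peptide processing, TAP1 and TAP2 were at 0 and could not be tested. TAPBP, a chaperone of MHC class I loading, had 8 counts in 13EP5, 11 in 15CP1 and 0 in the other 8. Its edgeR estimate had an unadjusted p under 0.05, as had 20.6% of all genes, and an adjusted p of 0.192. The unadjusted p for TAPBP was 0.444 by the exact permutation test and 0.217 by edgeR on the 4 deepest libraries. IRF1, which drives interferon-induced genes including the immunoproteasome genes, had 5705 counts over the series and a log2 fold change of -0.27 by edgeR, or 0.57 in the 4 deepest libraries. NLRC5, a transactivator of MHC class I genes, had 1763 counts and a log2 fold change of 0.96, or -0.027 in the 4 deepest. B2M, the light chain of MHC class I, had 423 counts and a log2 fold change of 2.28, or 2.34 in the 4 deepest. None of the 3 passed the test in either set of libraries.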

How the data were processed

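RNA from sorted Tr1 cells of 10 monkeys (5 per cohort, 1 library each) was sequenced as paired-end reads. Mapping was to human hg38 with HISAT2 2.0.2, and the authors deposited raw counts per gene, and FPKM values made by Cuffdiff 2.2.1; how strand, duplicates and reads with several matches were counted is not given in the sources used here. Counts of overlapping antisense genes are therefore uncertain. Total counts ran from 6076 to 5895609 per library. Per-sample columns not used numbered 0.

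The members, gene lists and tests were chosen with earlier results of these data known. Cohort C was compared with Cohort B with edgeR 4.0.16 (R 4.3.3; TMM, quasi-likelihood test, genes with at least 10 summed counts; Benjamini-Hochberg adjustment over all genes), with limma 3.58.1 on log2(FPKM + 1) where the mean FPKM reached 1, and by an exact permutation test (two-sided, log2(CPM + 1)) with scipy 1.17.1 (Python 3.11.15). The SE was derived from the estimate and its F value. Alternatives included DESeq2 1.42.0, limma-voom, other scalings, other filters and leaving out each library. A value of 3 counts or fewer was taken as the floor. The edgeR quasi-likelihood fit was tested on simulated counts, and the permutation test on a made-up separated row and a made-up constant row. Each test took the monkey as its unit, but for sparse counts the edgeR p need not follow the spread between monkeys. PSMG3-AS1, counted in 1 library only, had an unadjusted p of 0.00787 by edgeR's quasi-likelihood test. Unadjusted p under 0.05 was reached by 20.6% of all genes with edgeR and by 0.24% with the permutation test. The genes set to be named were the catalytic genes, the activators and inhibitor, and the 2 most counted genes of each other role. The 3 with the smallest edgeR p in each direction were also set to be named. Fold changes with SE are given for some of these genes only. PSMA6, PSMD1, PSMD12, PSMD13, PSMC1 and the genes in the lists of separated libraries were named after their values were seen. Gene order came from the RefSeq table of T2T-MMU8v2.0, where all 48 symbols matched, and was used for neighbours only. No sequence of these genes was used here. Results for some genes of the fixed pathway lists are not reported here.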

Additional observations from a re-analysis of the deposited data

Results flagged for a closer look

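Within a cohort of 5, 8 of 64 examined sets of values had a monkey standing apart, with a gap to its nearest neighbour above 0.71 of the whole range. Chance gives about 1 in 20, and most of these sets hold several libraries at 0. In Cohort B, 13EP12 stood above the others for PSMB5 (gap 1 times the range, 4 counts against 0 elsewhere) and for PSMB6 (gap 0.87, 83.0 CPM). In the same cohort, 13EP8 stood above for PSMB4 (gap 0.79, 17.5 CPM), for PSMG1 (gap 0.84, 53.4 CPM) and for PSMG3-AS1 (gap 1, 10.7 CPM). The alpha genes summed to 0 counts in 14HP31, which lay below the rest of Cohort B (gap 0.84). In Cohort C, 15CP1 stood above for PSMD6-AS2 (gap 0.78, 18.0 CPM), and the cap non-ATPases summed to 0 in 15CP4, below the other 4 (gap 0.74). The library of 14HP31 had 6076 counts and that of 15CP4 had 66485.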

How the results depend on the processing

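The number of the 48 rows called at an unadjusted p under 0.01 and 1.5-fold, 1 as reported, was 2 with RLE size factors, where PSMD5-AS1 joined, and 0 with DESeq2, edgeR's exact test, filterByExpr, limma-voom, the index suffix as covariate, without libraries under 100000 counts, and without libraries under 1000000 counts (chosen after seeing the data). Leaving out single libraries gave 0 to 1. The filterByExpr run tested 15 of the 48 rows. PSMG3-AS1 was the row lost, and with filterByExpr or without 13EP8 it was not among the rows tested. Against the floor of 3 counts over Cohort C, its pooled CPM was at least 12.7-fold lower there. That bound rests on 14 counts in 13EP8 alone and leaves out counting error and the spread between monkeys. Over all genes, the calls at this threshold numbered 911 as reported, 1525 with RLE, 69 with DESeq2, 88 with the exact test, 67 with limma-voom, 10 with filterByExpr, 98 with the suffix and 117 in the 4 deepest libraries. In every alternative run, 0 rows passed an adjusted p under 0.05, 0 the limma test on FPKM and 0 the permutation test at p under 0.05. The median log2 fold change of the tested rows, 0.16, ran from -0.60 without 13EP5 to 0.86 without 13EP8, and over all genes from -0.58 to 0.83. The immunoproteasome share, -2.16 points as reported, was 6.59 from FPKM, -7.68 without 13EP12 or with a minimum of 5 counts, and 3.35 without 13EP8 or with a minimum of 100 counts.

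Replicate numbers did not pair the monkeys, since the correlations of same-numbered deviations were 0.38, -0.29, 0.02, -0.43 and -0.04. With the replicate block 0 rows and 0 genes were called at the unadjusted threshold, and the log2 fold change turned to -1.98 for PSME1, -0.54 for PSMF1, -0.49 for PSMC5 and 1.60 for PSMG1.

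Of 22 named genes tested, 10 kept their direction in every alternative that tested them and 12 did not, and the cause was not tested. The 10 include PSMD5-AS1, at 0 throughout Cohort B, and PSMG3-AS1, at 0 throughout Cohort C, for which a change of direction was hardly possible. Limma-voom gave -1.54 for PSME1, -0.73 for PSMF1, -0.65 for PSMA7, -0.38 for PSMD2, -0.31 for PSMC5, -0.18 for PSMD6, 0.27 for PSMB6 and 0.41 for PSMG1. Library size only gave -0.051 for PSMB1, -0.26 for PSMC5 and -0.17 for PSMF1, DESeq2 gave -0.039 for PSMB1 and -0.21 for PSMC5, and RLE gave -0.12 for PSMC5. The suffix covariate gave -0.20 for PSMC5 and 0.42 for PSMG1. Without libraries under 100000 counts PSME4 was -0.20 and PSMB10 0.59, and without those under 1000000 counts PSME4 was -0.25, PSMC5 -0.13 and PSMB10 0.40. Leaving out single libraries gave ranges of -0.60 to 2.96 for PSMB1, -0.89 to 1.53 for PSMC5, -1.67 to 4.43 for PSMG1, -1.05 to 1.84 for PSMF1, -2.03 to 4.32 for PSMB6, -0.35 to 0.94 for PSME1, -0.30 to 1.22 for PSMA7, -0.078 to 1.05 for PSMD2, -0.79 to 1.48 for PSMD6, -1.99 to 1.32 for PSMA4, -0.27 to 0.47 for PSME4 and -3.08 to 0.30 for PSMB10. Depth limits the 6 shallow libraries, in which 1 count is worth between 2.21 and 39.5 CPM.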

Other observations

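The counts and the FPKM values of the proteasome genes did not always go together. Of 207 gene and library combinations with a count above 0, 56 were listed at 0 FPKM, and of the 159 with over 20 counts, 21 were; the reverse occurred 0 times. The median of the genes above 0 was 50.0 counts per 1000000 in 13EP5 and 43.3 in 15CP1, but 194 FPKM in 13EP5 and 21.7 FPKM in 15CP1. In Cohort B it was 32.7 counts per 1000000 and 30.1 FPKM in 13EP12, and 58.2 and 34.2 in 13EP8.

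The antisense RNAs were counted beside their partner genes. PSMD6-AS2 had 196 counts over 4 libraries, with 41 in 13EP12, 65 in 13EP8, 3 in 13EP5 and 87 in 15CP1, against 1412 for PSMD6. PSMD5-AS1 had 21 counts in 13EP5, 74 in 15CP1 and 0 in the other 8. In pooled CPM this was at least 11.7-fold higher in Cohort C than the floor of 3 counts over Cohort B. The bound leaves out counting error and the spread between monkeys. PSMA3-AS1 had 87 counts over 3 libraries. Without knowing how strand was counted, these reads cannot be told apart from those of the partner genes.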
